A study of Mus musculus with 75 samples.

Results

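Afp, Gpc3, Igf2bp3, Igf2bp2, Lin28b, Hmga2, Cd24a, Ly6d, Tff3 and Golm1 are 10 genes, of 55536 in the count table, that are active in the fetal liver or used as markers of liver tumors. They were taken by symbol, and all 10 matched. They were chosen by name with results of these livers known, namely the expression differences of high-risk livers and tumors from the other livers, so those differences are described with their size and error and no test is read from them. Tests are given for changes with age in unexposed livers, for exposed against unexposed livers at weaning, for low-risk against unexposed livers and for whether high-risk minus low-risk varied by age or batch. The tests by age and batch use the same high-risk and low-risk values, so they are not free of how the genes were chosen. A lack of calls in them is not read as an equal difference.

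Oncofetal genes are transcribed in the fetal liver, fall silent after birth and can return when hepatocytes proliferate or become malignant. LIN28B is an RNA-binding protein that blocks the maturation of let-7 microRNAs. The let-7 family in turn represses messages that carry its sites, among them Lin28b itself, Hmga2, which encodes a chromatin protein of embryonic cells, and the Igf2bp genes, whose proteins bind and stabilise messages of growth factors. AFP is the fetal serum albumin, and glypican-3 (GPC3) is a heparan sulfate proteoglycan of the fetal hepatocyte surface; both are clinical markers of hepatocellular carcinoma.

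RNA of whole liver was sequenced in 75 libraries of C57Bl/6 mice, all given as male. The dams were given vehicle or tributyltin (TBT), an organotin biocide, in the drinking water at a daily dose of 0.5 mg/kg (3.07 µM), and exposure ended at weaning. The groups used are 3-week vehicle (8 libraries, 7 samples) and 3-week TBT (8), 5-month vehicle (8), TBT labelled low-risk (16) and TBT labelled high-risk (10), and 10-month vehicle (6), low-risk TBT (5), uninvolved liver of high-risk TBT mice (6 libraries, 5 samples) and tumors of high-risk TBT mice (7), with 1 further tumor library from a vehicle mouse. What the risk labels of 5 months were based on is not given, so whether expression entered them is unknown. Samples carry mouse numbers, and the p-values measure the spread between these samples. Dam and litter are not given among the labels used here, so the p-values and intervals take no account of littermates.

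Totals ran from 2.83 to 45.4 M counts (M, mega) per library, and levels are given as counts per M counts of the library (CPM). The 5 hepatocyte marker genes Alb, Apoa1, Ttr, Apob and Cps1 together held 65700 to 191000 CPM in every sample. Some libraries stood apart, and 6 deviated technically, by a total under 5 M, a mitochondrial share over 10% or more than 35000 genes with counts, among them 5-month vehicle 9 (2.83 M counts) and high-risk liver 10. The library labelled 3-week TBT 4 goes against its label of male: its Xist level was 348 CPM, where no other library exceeded 84.6, and its Y-linked level (4 genes) was 7.08 CPM, where no other was below 93.9. Uninvolved livers 3 and 6 were far closer in their counts than any other pair of a group and were summed, as were the libraries 3a and 3b of 3-week vehicle mouse 3. Of the 5-month livers, 7 high-risk, 10 low-risk and 1 vehicle were sequenced in batch 2, and all other libraries in batch 1.

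The let-7 family is shown here because 4 of the 10 genes carry its sites. RefSeq lists 10 mouse miRNAs of this seed (GRCm38.p6), written 5′ to 3′ with bases 2 to 8, the seed, in capitals:
let-7a-5p: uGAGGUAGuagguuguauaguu
let-7b-5p: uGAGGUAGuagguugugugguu
let-7c-5p: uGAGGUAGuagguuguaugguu
let-7d-5p: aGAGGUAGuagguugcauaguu
let-7e-5p: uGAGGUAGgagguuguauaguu
let-7f-5p: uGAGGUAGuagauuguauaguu
let-7g-5p: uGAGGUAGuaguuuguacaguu
let-7i-5p: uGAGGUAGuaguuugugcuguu
let-7k: uGAGGUAGgagguugugug
miR-98-5p: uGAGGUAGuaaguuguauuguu

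The complement of the seed, CTACCTC, was searched on the transcribed strand of the longest annotated 3′ untranslated region (UTR) of each gene. Lin28b held 4 matches in 4445 bases, Hmga2 4 in 3014 bases, Igf2bp3 1 in 2119 bases and Igf2bp2 1 in 1784 bases, and the other 6 genes held 0. Of 20998 mouse 3′ UTRs, 8.95% held a match and 0.152% held at least 3. Among UTRs of similar length (80% to 125% of its own), 0.297% had as many as Lin28b and 0.124% as many as Hmga2. For the single matches of Igf2bp3 and Igf2bp2 these shares were 13.3% and 12%, so a single match was not rare at their lengths. The matches are written in windows of 30 bases, 5′ to 3′ on the minus strand of GRCm38, with the match in capitals.
Lin28b, chr10:45381021-45381050: cccttcacccgggcgggaagtCTACCTCat
Lin28b, chr10:45378647-45378676: cgtacatatacttgttagtaaCTACCTCtg
Lin28b, chr10:45378475-45378504: aattctgtttacagcacatggCTACCTCcc
Lin28b, chr10:45377059-45377088: gcttggaaatgatggcaccgaCTACCTCtt
Hmga2, chr10:120364223-120364252: gggggcgccgacattcaatttCTACCTCag
Hmga2, chr10:120362986-120363015: aataatccccactcctcaataCTACCTCtg
Hmga2, chr10:120362548-120362577: gacttcctgatttgcaaggaaCTACCTCca
Hmga2, chr10:120361690-120361719: ttgtacaatcaaaacacactaCTACCTCtt
Igf2bp3, chr6:49086786-49086815: taaacgtgcatttttactcaaCTACCTCag
Igf2bp2, chr16:22059472-22059501: agaaaaacacacaaataaaagCTACCTCag

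The 10 genes fell into several patterns across the 73 samples. Gpc3, Igf2bp3, Afp and Cd24a had high levels at weaning and low levels in adult vehicle livers. Ly6d and Golm1 had their highest medians in tumors and high-risk livers, as did Tff3, and Igf2bp2 was lower there than in low-risk livers. Lin28b and Hmga2 stayed at or near 0 counts in most samples, did not pass the filter on low counts in any comparison and were tested in none. The other 8 genes were tested in each of the comparisons. In RNA of whole liver, fewer cells of a type and less RNA per cell cannot be told apart.

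**Figure D1:**
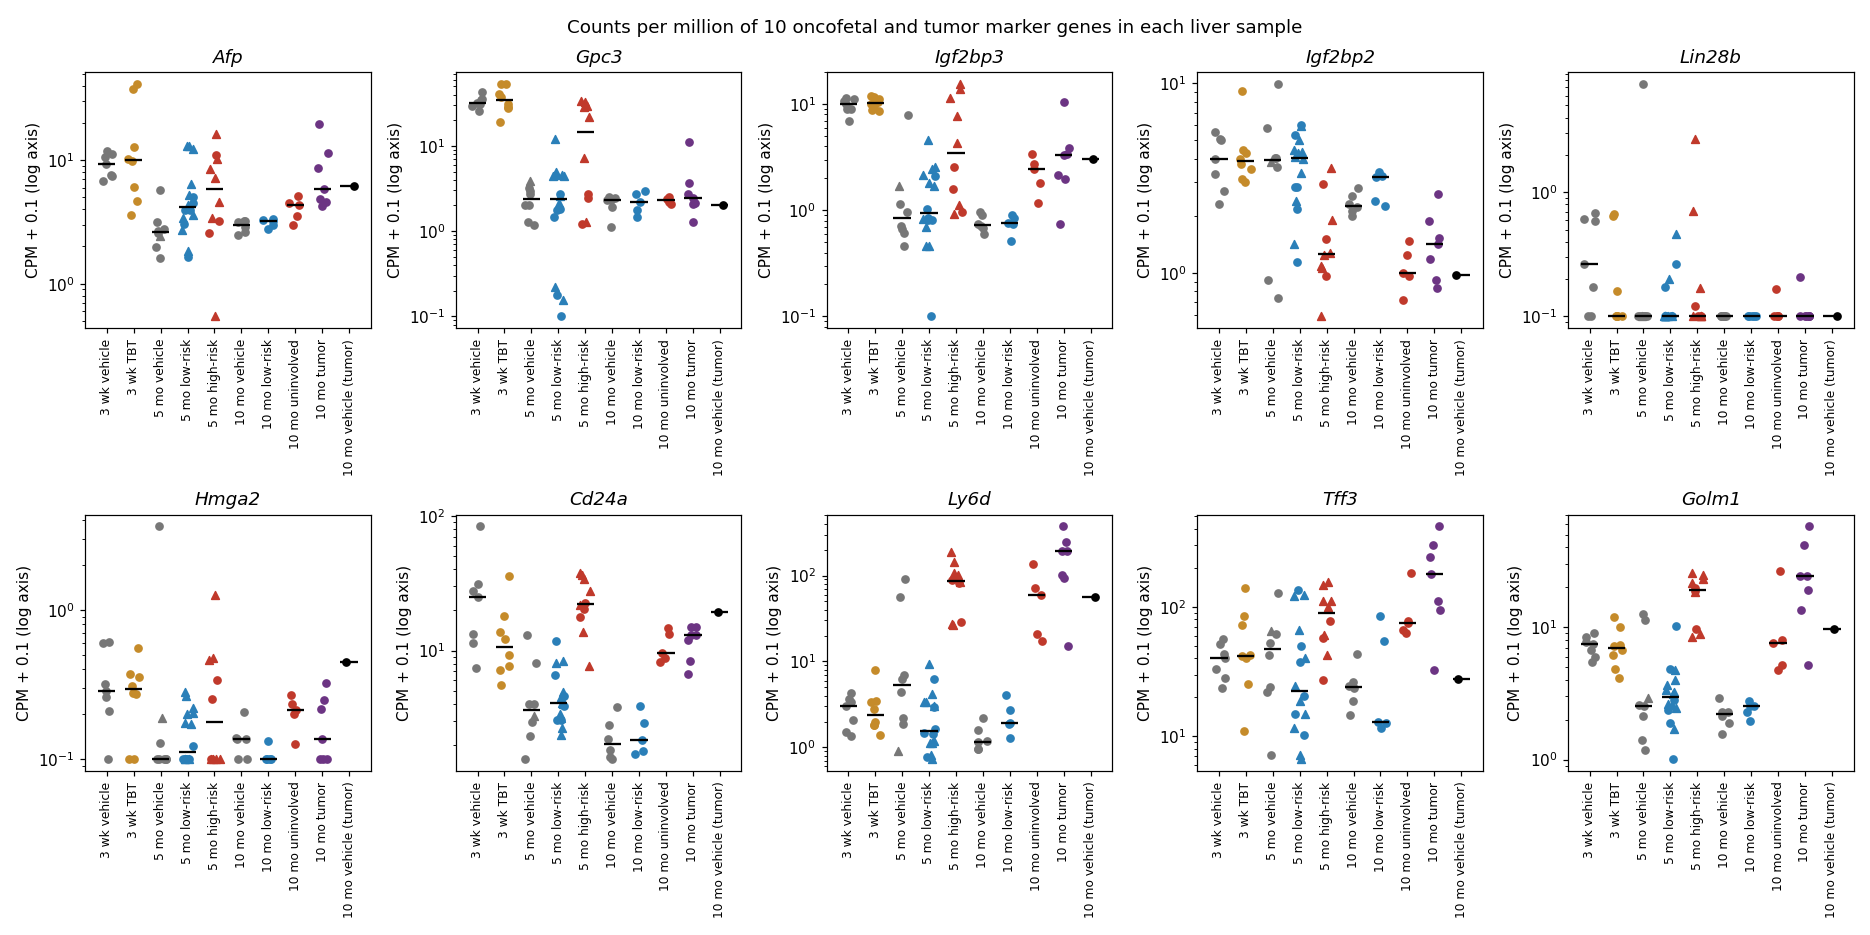
CPM plus 0.1, on a log axis, of each of the 10 genes by group, with 1 point per sample (triangles for batch 2) and a line at the group median. Gpc3 and Igf2bp3 are high at 3 weeks and in part of the high-risk 5-month livers, whereas Ly6d and Golm1 are high in high-risk livers and tumors.

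Counts of genes past an adjusted p of 0.05 in edgeR's quasi-likelihood test, with Benjamini-Hochberg adjustment over all genes tested, are given beside the share of all tested genes past the same threshold. Between 5-month and 3-week vehicles 5 of the 8 tested members changed, 1 higher and 4 lower, where 24.2% of all tested genes did (11.9% higher, 12.3% lower). Between 10-month and 5-month vehicles 1 of 8 was lower and 0 higher, with a background of 14.1% (7.41% lower, 6.68% higher).

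The contrasts that bear on how the list was drawn up had these counts, from which nothing is read. High-risk livers of 5 months had 5 members higher and 1 lower than low-risk livers, of 8 (background 20.3% higher and 18.5% lower, 38.9% in all). Against vehicles they had 2 higher and 1 lower (background 8.47% and 7.38%, 15.8% in all). At 10 months, uninvolved livers had 4 members higher and 1 lower than low-risk livers (background 27.7% and 24.7%, 52.4% in all) and 5 higher and 1 lower than vehicles (31.2% and 26.5%, 57.7% in all). Tumors had 6 higher and 1 lower than vehicles (24.8% and 21%, 45.9% in all), and 6 higher and 1 lower than low-risk livers (21.3% and 15.3%, 36.7% in all). Against 3-week vehicles, from which they also differ in age, tumors had 3 higher and 4 lower (20.6% and 20.1%, 40.6% in all). Tumors against uninvolved livers had 0 of 8 past the threshold by edgeR, 3 at an unadjusted p under 0.05 and 1 by DESeq2 (background 7.55% higher and 10.5% lower, 18.1% in all).

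**Figure D2:**
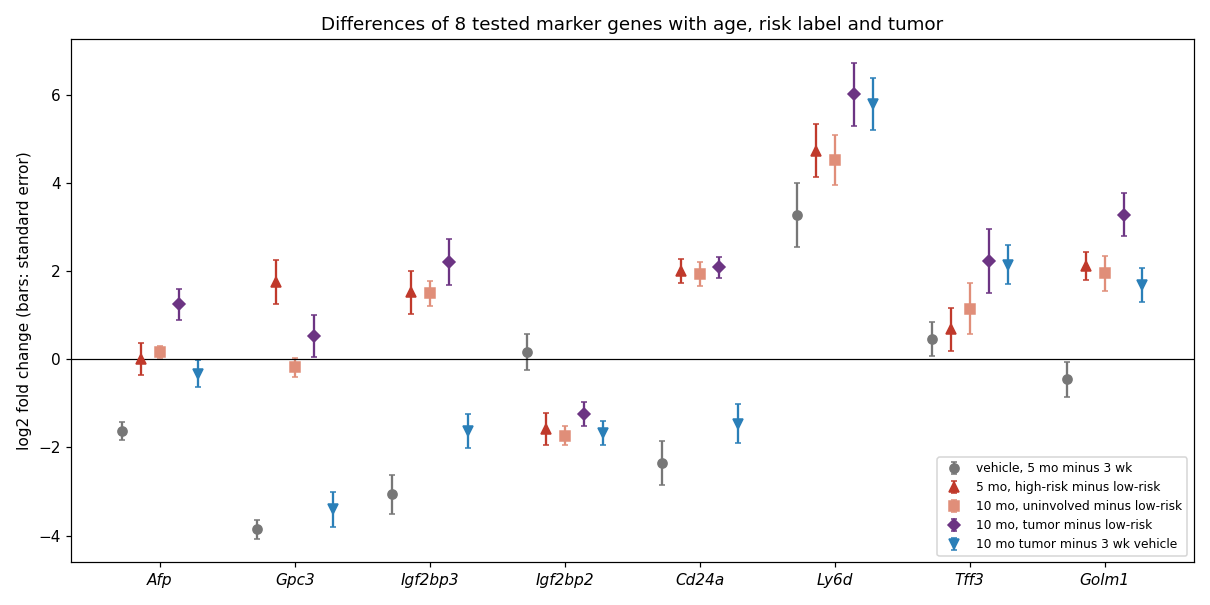
Log2 fold changes (points) of the 8 tested genes with standard errors (bars) for 5-month against 3-week vehicles and for high-risk, uninvolved and tumor against low-risk or 3-week livers. Of the 5 comparisons plotted, Ly6d has the highest point, 6.01 for tumors against low-risk livers, and Gpc3 the lowest, -3.86 for 5-month against 3-week vehicles; the step from 5 to 10 months is not plotted.

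Lin28b (chr10:45376620-45486395, minus strand) was present in traces at weaning. Of the 7 vehicle samples of 3 weeks 5 had counts, up to 0.580 CPM (7 counts), and of the 8 TBT samples 3 had counts, up to 0.564 CPM. All 6 vehicle and all 5 low-risk livers of 10 months were at 0 counts, for which the level that 3 counts of the total would give is 0.0896 to 0.115 CPM. Tumor 1 had 3 counts (0.108 CPM) and the other 6 tumors had 0. The highest values of the series were in 5-month vehicle 9 (21 counts, 7.42 CPM) and high-risk liver 10 (20 counts, 2.57 CPM), both among the technically deviating libraries, and 54 of all 73 samples were at 0. Lin28b was therefore not detectable at this depth in adult vehicle livers other than vehicle 9.

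Hmga2 (chr10:120361275-120476469, minus strand) was as low. It reached 0.511 CPM in 3-week vehicles and 0.460 CPM in 3-week TBT livers. In tumors it lay between 0 and 0.222 CPM, with 3 of 7 at 0, and in uninvolved livers between 0.0274 and 0.171 CPM. The same pair of deviating libraries held the highest levels, 3.53 CPM in 5-month vehicle 9 and 1.16 CPM in high-risk liver 10. Among the groups of several samples, only uninvolved liver had counts of Hmga2 in each sample, from 1 to 13. Its libraries were the deepest of that age (34.8 to 44.6 M counts, against 22.5 to 27.9 M in tumors), and livers 3 and 6 were summed. The part of depth in this was not tested.

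Igf2bp3 (chr6:49085223-49214957, minus strand) encodes an IGF2 messenger-binding protein that is mainly fetal. Its level lay between 6.87 and 11.4 CPM in 3-week vehicles (median 9.97) and between 0.359 and 7.77 CPM in 5-month vehicles (median 0.745), where 7 of 8 livers were at or below 1.60 and the highest was the deviating vehicle 9. Among batch 1 vehicles it fell by 3.07 on the log2 scale from 3 weeks to 5 months (SE 0.45, adjusted p = 3.08e-05, edgeR). From 5 to 10 months the change was -0.66 (SE 0.49, adjusted p = 0.373), and 10-month vehicles lay between 0.497 and 0.864 CPM.

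In high-risk livers of 5 months Igf2bp3 ran from 0.815 to 15.5 CPM (median 3.35), and in low-risk livers from 0 to 4.51 CPM (median 0.836). The high-risk livers split: 10, 12, 13, 17 and 25 had 4.24 to 15.5 CPM, and 1, 4, 9, 15 and 22 had 0.815 to 2.46 CPM. The log2 difference from low-risk livers was 1.52 (SE 0.49). At 10 months the uninvolved livers had 1.07, 1.72, 2.33, 2.60 and 3.32 CPM, all above the low-risk livers at 0.416, 0.646, 0.667, 0.749 and 0.806 CPM, a log2 difference of 1.49 (SE 0.28). Tumors ran from 0.646 (tumor 7) to 10.4 CPM (tumor 12), with a median of 3.24, so 1 tumor lay within the range of low-risk livers and 6 above it. The log2 difference of tumors from 3-week vehicles was -1.62 (SE 0.39), in a contrast where age and tumor cannot be told apart.

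Igf2bp2 (chr16:22059009-22163299, minus strand), the paralog that stays active in adult tissues, went the other way. It did not pass the test between 3-week and 5-month vehicles (log2 difference 0.17, SE 0.41, adjusted p = 0.821, edgeR), with medians of 3.90 and 3.84 CPM. High-risk livers of 5 months ran from 0.489 to 3.47 CPM (median 1.16) and low-risk livers from 1.04 to 5.90 CPM (median 3.95), a log2 difference of -1.59 (SE 0.36), with 4 of 10 high-risk livers below every low-risk liver. At 10 months the uninvolved livers had 0.623, 0.863, 0.904, 1.14 and 1.36 CPM, all below the low-risk livers at 2.16, 2.29, 3.11, 3.14 and 3.30 CPM (log2 difference -1.74, SE 0.21). Tumors ran from 0.728 to 2.51 CPM (median 1.32). Their log2 difference was -1.66 from 3-week vehicles (SE 0.27) and -0.99 from 10-month vehicles (SE 0.25).

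Afp (chr5:90490737-90508907, plus strand), the fetal serum protein, had 6.62 to 11.8 CPM in 3-week vehicles and 1.52 to 5.65 CPM in 5-month vehicles, with no overlap. Among batch 1 vehicles the log2 fold change was -1.62 (SE 0.20, adjusted p = 4.16e-06, edgeR). The 3-week TBT livers were uneven, with 37.5 CPM in liver 1, 41.6 CPM in the library labelled TBT 4 and 3.53 to 12.6 CPM in the other 6. Their log2 difference from vehicles was 0.76 (SE 0.47, adjusted p = 0.999), and 0.43 without library 4.

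High-risk and low-risk livers of 5 months did not separate by Afp, with 0.443 to 16.1 CPM (median 5.78) and 1.55 to 13.02 CPM (median 4.05) and a log2 difference of 0.01 (SE 0.36). Uninvolved livers of 10 months had 2.90, 3.42, 4.27, 4.42 and 5.06 CPM and overlapped the low-risk livers at 2.66, 2.87, 3.103, 3.17 and 3.25 CPM (log2 difference 0.17, SE 0.14). Tumors ran from 4.14 to 19.5 CPM (median 5.74), and all 7 lay above every 10-month vehicle (2.37 to 3.13 CPM) and low-risk liver. The log2 difference of tumors from low-risk livers was 1.24 (SE 0.36). Tumors 12 and 5, at 19.5 and 11.3 CPM, stood above the other 5. Against 3-week vehicles the tumor level of Afp had a log2 difference of -0.32 (SE 0.30, 95% interval -0.91 to 0.26).

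Among the 11 genes listed as neighbours and regulators of Afp, 3 rose and 2 fell from 3 weeks to 5 months in vehicles (background 11.9% and 12.3%, median log2 change 0.26, against 0.02 over all genes). Zhx2, a repressor of Afp in adult mouse liver, rose by 0.72 (SE 0.11, adjusted p = 3.15e-05) and Zbtb20, another repressor of Afp, by 0.97 (SE 0.19, adjusted p = 0.000794, edgeR). The neighbours Alb and Afm, members of the same albumin gene family, fell by 0.81 and 0.76. In high-risk against low-risk livers of 5 months 7 of the 11 were lower and 0 higher (background 18.5% lower, 20.3% higher), among them Nr5a2 (-0.61, SE 0.09), Afm (-0.74, SE 0.13) and Cebpa (-0.95, SE 0.19). In tumors against low-risk livers 6 were lower and 0 higher (background 15.3% and 21.3%).

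Golm1 (chr13:59634626-59675811, minus strand) encodes a Golgi membrane protein that is shed into serum and measured as a liver tumor marker. In 5-month low-risk livers it ran from 0.907 to 10.2 CPM (median 2.88) and in high-risk livers from 8.40 to 25.4 CPM (median 19.1), a log2 difference of 2.12 (SE 0.33). The highest low-risk value was in liver 2, which also held 1080 CPM of 5 intestinal marker genes and 213 CPM of 6 cholangiocyte markers, the highest of the series; the part of these in its Golm1 level was not tested. Uninvolved livers of 10 months had 4.66, 5.06, 7.56, 7.85 and 26.5 CPM, where the highest is the sum of livers 3 and 6, and low-risk livers had 1.87, 2.18, 2.43, 2.46 and 2.69 CPM. Tumors ran from 5.08 (tumor 7) to 57.7 CPM (tumor 11), with a median of 24.1, and all lay above every 10-month vehicle and low-risk liver (log2 difference from low-risk livers 3.28, SE 0.49). In vehicles Golm1 had medians of 7.31, 2.45 and 2.11 CPM at 3 weeks, 5 months and 10 months, and neither step passed the test (adjusted p = 0.46 and 0.0649, edgeR). The log2 difference of tumors from 3-week vehicles was 1.69 (SE 0.38).

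Tff3 (chr17:31125306-31129646, minus strand), a secreted trefoil peptide of mucous epithelia, had the highest level per gene length of the 10 genes in every group of more than 1 sample. It varied widely within groups, from 7.06 to 129 CPM in 5-month vehicles, from 6.56 to 135 CPM in low-risk livers and from 27.3 to 155 CPM in high-risk livers. The log2 difference between the latter was 0.68 (SE 0.49). At 10 months the low-risk livers had 11.6, 12.5, 12.8, 54.6 and 84.5 CPM and the uninvolved livers 62.4, 66.2, 75.0, 77.6 and 183 CPM, with overlap (log2 difference 1.15, SE 0.58). Tumors ran from 32.4 to 418 CPM (median 180), a log2 difference of 2.23 from low-risk livers (SE 0.72) and of 2.15 from 3-week vehicles (SE 0.43). Low-risk livers 3, 20 and 24 had 135, 121 and 124 CPM, so high Tff3 was also seen in livers with the low-risk label.

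Gpc3 (chrX:52272426-52613950, minus strand) had the sharpest loss after weaning. It ran from 25.7 to 42.7 CPM in 3-week vehicles and from 1.08 to 3.82 CPM in 5-month vehicles, with no overlap, and from 1.03 to 2.45 CPM at 10 months. The log2 fold change from 3 weeks to 5 months was -3.86 (SE 0.21, adjusted p = 2.26e-11, edgeR). In the 3-week TBT livers Gpc3 ran from 19.2 to 53.8 CPM, a difference of 0.15 from vehicles (SE 0.16, 95% interval -0.16 to 0.47, adjusted p = 0.999).

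At 5 months Gpc3 split the high-risk livers. Livers 10, 13, 17, 1 and 25 had 33.8, 28.4, 28.9, 32.7 and 21.7 CPM, within the range of the 3-week livers of both exposures (19.2 to 53.8 CPM), liver 12 had 7.04 CPM, and livers 15, 22, 4 and 9 had 1.11, 1.17, 2.35 and 2.62 CPM. The 5 livers above 20 CPM were all of batch 2. Low-risk livers ran from 0 to 11.8 CPM (median 2.26), and livers 3, 11 and 24 had 1 count each and liver 5 had 0, which allows up to 0.389 CPM at its depth. The log2 difference of high-risk from low-risk livers was 1.76 (SE 0.50).

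The values were taken within each batch as well. In batch 1 the 3 high-risk livers had 1.11 to 2.62 CPM of Gpc3 and the 6 low-risk livers 0 to 2.60 CPM, a log2 difference of 0.42. In batch 2 the 7 high-risk livers had a median of 28.4 CPM and the 10 low-risk livers a median of 4.30 CPM, a log2 difference of 2.18. For Igf2bp3 the values were 0.59 in batch 1 and 1.82 in batch 2. The difference between batches did not pass the test for Gpc3 (1.83, SE 1.21) or Igf2bp3 (1.25, SE 0.99), both at an adjusted p of 1 by edgeR and DESeq2, and 0 of the 8 members were called in that test (0 at an unadjusted p under 0.05, background 0%). Over all 16335 genes of that test edgeR called 0, DESeq2 called 4, and 441 had an unadjusted p under 0.05.

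**Figure D3:**
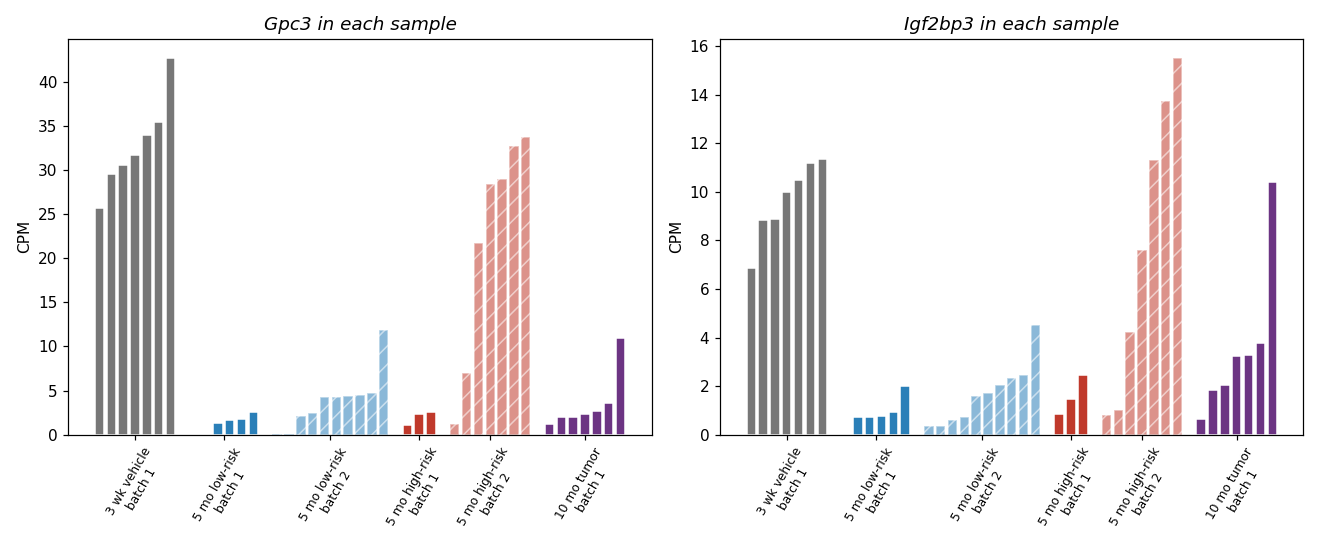
CPM of Gpc3 and Igf2bp3, 1 bar per sample, in 3-week vehicles, 5-month low-risk and high-risk livers and tumors, with batch 2 hatched. The bars of high Gpc3 at 5 months, 21.7 to 33.8 CPM, are high-risk livers of batch 2, and the 3 high-risk livers of batch 1 lie at 1.11 to 2.62 CPM.

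At 10 months Gpc3 did not separate the groups. Uninvolved livers had 1.98, 2.12, 2.25, 2.27 and 2.42 CPM and low-risk livers 1.36, 1.66, 2.10, 2.63 and 2.84 CPM (log2 difference -0.18, SE 0.22). Tumors ran from 1.17 to 10.96 CPM (median 2.37), where tumor 6 held the highest value and the next was 3.61 CPM. All tumors lay below all 3-week vehicles, with a log2 difference of -3.40 (SE 0.39). The change of the risk difference from 5 to 10 months was -1.90 for Gpc3 (SE 0.88, unadjusted p = 0.0385, adjusted p = 0.379, edgeR), and 0 of 8 members passed that test, with 1 at an unadjusted p under 0.05, 0 by DESeq2 and a background of 0.448%.

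Cd24a (chr10:43578284-43584265, plus strand) encodes a small mucin-like surface protein of progenitor and tumor cells. It was high at weaning, from 7.38 to 83.4 CPM in vehicles (median 25.01, with mouse 3 the highest), and lower in 5-month vehicles at 1.47 to 12.99 CPM (median 3.54). The log2 fold change with age was -2.35 (SE 0.50, adjusted p = 0.00184, edgeR). High-risk livers of 5 months had 7.64 to 37.7 CPM (median 22.1) and low-risk livers 2.28 to 11.6 CPM (median 3.96), and 9 of 10 high-risk livers were above every low-risk liver, the highest of which was liver 2 again. The log2 difference was 1.99 (SE 0.27). At 10 months the uninvolved livers had 8.08, 8.68, 9.42, 13.1 and 14.6 CPM and the low-risk livers 1.61, 1.71, 2.07, 2.80 and 3.80 CPM (log2 difference 1.93, SE 0.27). Tumors had 6.55 to 14.9 CPM (median 12.98), and their log2 difference from uninvolved livers was 0.10 (SE 0.20, 95% interval -0.29 to 0.49).

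Ly6d (chr15:74762056-74763620, minus strand) encodes a lipid-anchored surface protein known from B cell progenitors and squamous epithelia. It had the widest separation of the 10 genes. Vehicles of 3 weeks had 1.24 to 4.16 CPM and those of 10 months 0.851 to 2.09 CPM. At 5 months 6 of 8 vehicles had 0.799 to 6.83 CPM, and vehicles 4 and 6 had 56.0 and 92.2 CPM, the range of high-risk livers.

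All 10 high-risk livers of 5 months (26.2 to 186 CPM, median 86.0) lay above all 16 low-risk livers (0.629 to 9.17 CPM, median 1.46), a log2 difference of 4.73 (SE 0.60). The order held in both batches, with 28.7 to 88.7 CPM against 0.664 to 6.13 CPM in batch 1 and 26.2 to 186 CPM against 0.629 to 9.17 CPM in batch 2. At 10 months the uninvolved livers had 17.1, 20.9, 59.5, 71.2 and 136 CPM and the low-risk livers 1.20, 1.76, 1.82, 2.63 and 3.96 CPM (log2 difference 4.52, SE 0.56). Tumors ran from 15.1 (tumor 7) to 374 CPM (tumor 12), with a median of 193, and all lay above every vehicle and low-risk liver of that age. All tumors also lay above all 3-week vehicles in Ly6d, with a log2 difference of 5.78 (SE 0.59). The change of its risk difference between ages was -0.19 (SE 0.75, 95% interval -1.65 to 1.27, adjusted p = 0.95, edgeR).

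Vehicles 4 and 6 bear on each contrast with the 5-month vehicles. They also had the highest Golm1 of that group (11.2 and 12.5 CPM) and the lowest Igf2bp2 (0.640 and 0.822 CPM), with Cd24a at 8.04 and 12.99 CPM, while their Afp, Gpc3 and Igf2bp3 lay in the range of the other vehicles. The summed level of 5 proliferation markers was 84.3 CPM in vehicle 4 and 30.7 CPM in vehicle 6, with a group median of 12.5 CPM. Their labels are vehicle, and they were kept as such. Ly6d in 5-month vehicles was above 3-week vehicles by 3.27 (SE 0.73, adjusted p = 0.00281), and by 2.41 without vehicle 6 (adjusted p = 0.0066, edgeR). High-risk livers were above 5-month vehicles in Ly6d by 1.64 (SE 0.78), which was not called, and nothing is read from that. The 10-month vehicles were below 5-month vehicles by a log2 fold change of -4.29 (SE 0.82, adjusted p = 0.00271, edgeR). Both age contrasts of Ly6d hold vehicles 4 and 6, and the fit without vehicle 6 kept vehicle 4. No fit without both was made. The other batch 1 vehicles of 5 months had 1.77 to 6.83 CPM of Ly6d, overlapping the 3-week vehicles (1.24 to 4.16 CPM).

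Low-risk livers did not pass edgeR's test against vehicles in any of the members. At 5 months 0 of 8 members and 0% of 14773 genes were called by edgeR, with 934 genes at an unadjusted p under 0.05 and 52 called by DESeq2, among them 1 member, Ly6d. Its log2 difference was -3.08 (SE 0.75, adjusted p = 0.362), and vehicles 4 and 6 were above all 16 low-risk livers. At 10 months 0 of 8 members and 0% of 16338 genes were called by edgeR, with 688 genes at an unadjusted p under 0.05 and 1 by DESeq2, neither with a member. The 10-month intervals still allowed differences of -0.32 to 1.94 for Ly6d and -0.64 to 1.51 for Tff3, and a narrower -0.25 to 0.30 for Afp. At weaning TBT against vehicle also had 0 of 8 members and 0% of 14050 genes called by edgeR, with 474 genes at an unadjusted p under 0.05 and 2 by DESeq2, again without a member. The largest difference there was Cd24a at -1.02 (SE 0.52, adjusted p = 0.999), and without the library labelled TBT 4 it was -0.94.

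**Figure D4:**
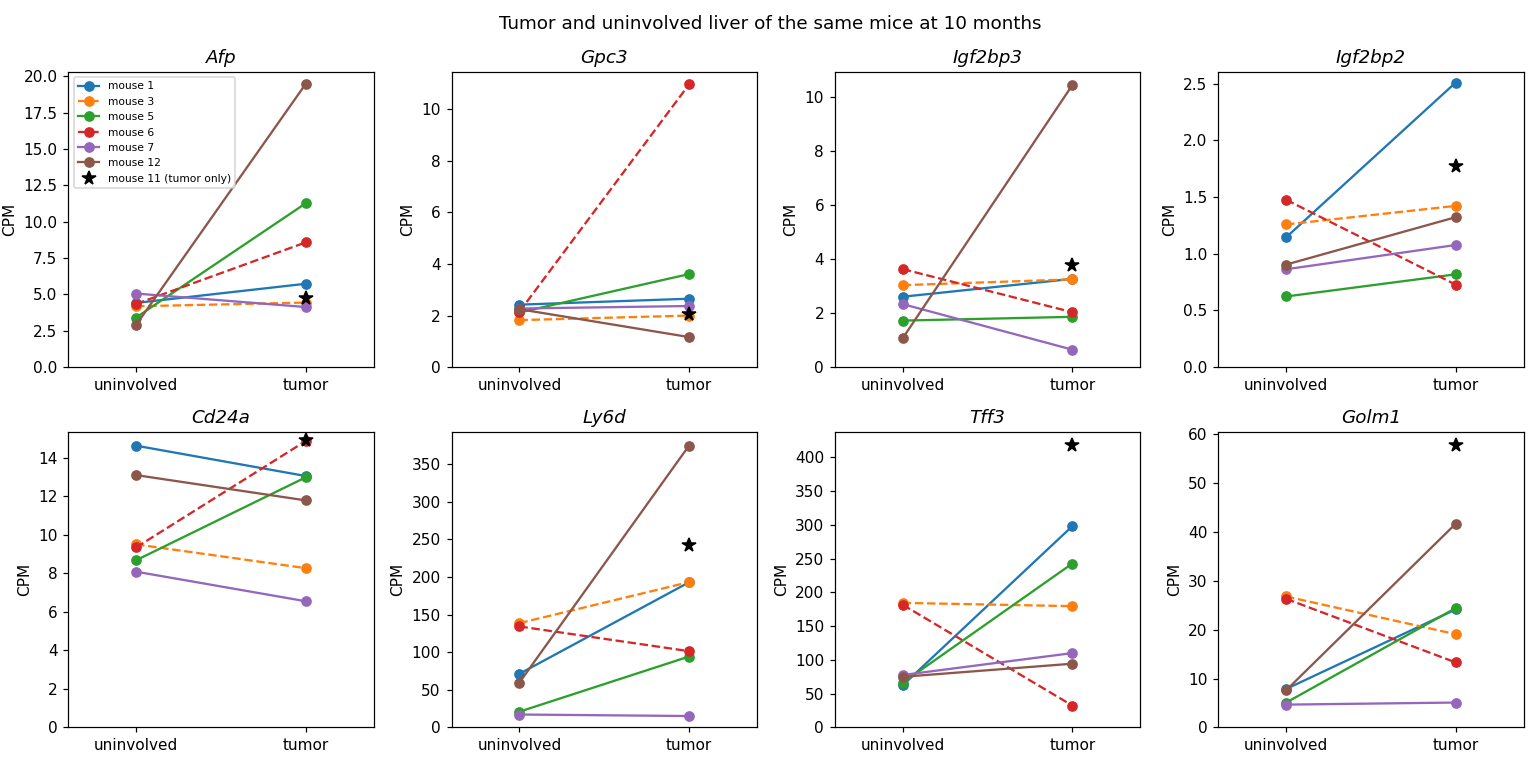
CPM of the 8 tested genes in uninvolved liver and tumor of the same mouse, with 1 line per mouse for the 6 mice with both (dashed for mice 3 and 6, whose uninvolved libraries are nearly the same) and a star for mouse 11, which has a tumor only. Afp, Gpc3 and Igf2bp2 were higher in the tumor in 5 of 6 mice and Cd24a in 2 of 6.

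Of the 6 mice that gave tumor and uninvolved liver, the tumor was higher in 5 for Afp, Gpc3 and Igf2bp2, in 4 for Igf2bp3, Ly6d, Tff3 and Golm1 and in 2 for Cd24a. Without mice 3 and 6 the tumor was higher in 4 of 4 for Igf2bp2, Tff3 and Golm1, in 3 of 4 for Afp, Gpc3, Igf2bp3 and Ly6d and in 1 of 4 for Cd24a. The unpaired log2 differences of tumor from uninvolved liver were 1.46 for Ly6d (SE 0.65), 1.30 for Golm1 (SE 0.56), 1.05 for Tff3 (SE 0.52) and 1.02 for Afp (SE 0.35). Blocked by mouse (a replicate block of the 4 separate pairs), the log2 differences were 1.60 for Ly6d (SE 0.38), 1.27 for Tff3 (SE 0.36) and 1.70 for Golm1 (SE 0.32). These 3 members were past edgeR's threshold with the block of 4 pairs and 0 with a block of all 6 pairs, and nothing is read from either count. Gpc3 in this contrast rested on tumor 6, with 0.66 over all tumors and 0.06 without it, and Igf2bp3 on tumor 12, with 0.66 and 0.14.

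Tumor 7 stood apart from the other 6. It had the lowest Ly6d, Golm1, Cd24a and Igf2bp3 of the tumors, at 15.1, 5.08, 6.55 and 0.646 CPM, and its own uninvolved liver had 17.1, 4.66, 8.08 and 2.33 CPM. The summed level of the 5 proliferation markers was 11.9 CPM in tumor 7, the lowest, against a tumor median of 119 CPM.

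Levels per gene length, in reads per kilobase of exon per M counts (RPKM), allow the genes to be set side by side. In 3-week vehicles Tff3 had 80.0 ± 24.5 RPKM (SD, n = 7), Gpc3 12.2 ± 2.0, Hmga2 0.0355 ± 0.0285 and Lin28b 0.0286 ± 0.0283, and Cd24a ran from 2.86 to 32.3 RPKM over these samples. In 5-month vehicles Gpc3 had 0.863 ± 0.355 RPKM (SD, n = 8). At 5 and 10 months Ly6d ranked next after Tff3 in every group of several samples.

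Other genes of the members' pathways were taken from gene lists. Among 11 tested genes of the LIN28, let-7 and IGF2BP pathway, 2 rose and 2 fell from 3 weeks to 5 months in vehicles (background 11.9% higher and 12.3% lower, with a median log2 change of 0.02 in the list and over all genes). Tut4, the uridylyltransferase that LIN28 recruits to let-7 precursors, fell by 0.80 (SE 0.16, adjusted p = 0.000864, edgeR), whereas Tut7, a uridylyltransferase with the same role, rose by 0.34 (SE 0.08, adjusted p = 0.00262, edgeR). Dis3l2, the nuclease that degrades uridylated let-7 precursors, rose by 0.41 (SE 0.11, adjusted p = 0.0096), and the zinc finger factor Plagl2 fell by 0.55 (SE 0.18, adjusted p = 0.0279, edgeR). In high-risk against low-risk livers of 5 months 1 of the 11 was higher, Tut4 (0.88, SE 0.17), and 1 lower, Mycn (-1.69, SE 0.47), with a background of 20.3% higher and 18.5% lower. Lin28a, Igf2bp1, Trim71 and Igdcc3 did not pass the filter on low counts there.

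Among 8 tested genes for other glypicans and heparan sulfate enzymes, 1 rose and 1 fell with age in vehicles (background 11.9% and 12.3%). Gpc1 rose by 2.10 (SE 0.18, adjusted p = 2.4e-08) as Gpc3 fell, and Gpc6 fell by 1.47 (SE 0.19, adjusted p = 6.44e-06, edgeR). In high-risk against low-risk livers of 5 months 4 were higher and 2 lower (background 20.3% and 18.5%), among them Gpc1 (1.35, SE 0.21), the sulfatase Sulf2 (1.38, SE 0.23) and Notum, a Wnt-inactivating esterase that binds glypicans (-1.13, SE 0.16). In tumors against 3-week vehicles, which also differ in age, 3 were higher and 2 lower (background 20.6% and 20.1%), with Gpc1 at 2.75 (SE 0.21). At the same age, the tumor difference of Gpc1 was 0.03 from 10-month vehicles (SE 0.23) and -0.01 from low-risk livers (SE 0.28).

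Paralogs of the surface and secreted markers were higher in 4 of 4 tested cases in high-risk against low-risk livers of 5 months (background 20.3%): Ly6c1 (2.53, SE 0.45), Ly6a (1.66, SE 0.19) and Ly6e (1.26, SE 0.21), neighbours of Ly6d in sequence family, and Casc4, the paralog of Golm1 (1.02, SE 0.16). Of 15 other fetal or tumor-associated liver genes, 8 of 12 tested fell and 0 rose from 3 weeks to 5 months in vehicles, with a median log2 change of -1.55 (0.02 over all genes, background 12.3% lower and 11.9% higher). The imprinted growth genes H19 and Peg3 fell by 6.31 (SE 0.80, adjusted p = 9.6e-06) and 1.98 (SE 0.13, adjusted p = 3.84e-10, edgeR). In tumors against 3-week vehicles, which also differ in age, 5 of 12 were higher and 3 lower (background 20.6% and 20.1%). Spp1, a secreted matrix protein, was at 3.25 there (SE 0.36) and Peg3 at -3.06 (SE 0.17). Against 10-month vehicles, tumors had 3.32 for Spp1 (SE 0.40) and -0.40 for Peg3 (SE 0.19). In uninvolved against low-risk livers 10 of 11 were higher and 0 lower (background 27.7% and 24.7%). These lists hold genes picked with results of these livers known and are no independent evidence of a direction.

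Markers of other cells and of division also differed between the groups. The 5 proliferation markers summed to 133 to 293 CPM in 3-week vehicles, 3.72 to 84.3 in 5-month vehicles, 5.53 to 40.8 in low-risk and 29.5 to 274 in high-risk livers, and at 10 months to 4.39 to 11.2 in low-risk livers, 14.2 to 88.9 in uninvolved livers and 11.9 to 157 in tumors, with no marker at 0 in any of these groups. In high-risk against low-risk livers of 5 months 5 of 5 were higher (background 20.3%). The 6 cholangiocyte markers summed to 12.7 to 213 CPM in low-risk and 20.3 to 96.6 CPM in high-risk livers of 5 months (3 of 6 higher), and to 13.7 to 15.9, 38.0 to 59.3 and 30.6 to 46.3 CPM in low-risk livers, uninvolved livers and tumors of 10 months. The 5 stellate cell markers summed to 38.7 to 97.6 and 116 to 440 CPM in low-risk and high-risk livers of 5 months (4 of 5 higher, 1 lower), and in vehicles to 202 to 353 CPM at 3 weeks and 37.5 to 126 CPM at 5 months. The part of these cells in the levels of the members was not tested.

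Across the 73 samples, which share groups, ages and batches, the members' levels ran together in part. As a description, Spearman's rho of CPM was 0.84 between Cd24a and Golm1, 0.75 between Ly6d and Golm1, 0.68 between Gpc3 and Igf2bp3 and -0.51 between Igf2bp2 and Ly6d. Among 12381 protein-coding genes of 1 CPM or more on average, those most like Golm1 were Cyp4f16 (0.93), Iqgap1 (0.92) and Stk10 (0.92). Those most like Cd24a were Tspan3 (0.88), Plekha2 (0.88) and Rab8b (0.87), and those most like Ly6d were Ly6e, Uap1l1 and Shc2 (0.85, 0.84 and 0.84). For Igf2bp3 they were Pygo1 (0.87), C1qtnf6 and Lig1 (both 0.86), and for Gpc3 Vldlr (0.75), Myo5c (0.75) and Stard8 (0.73). Afp had Emcn, Morc4 and Sult1c2 (0.72, 0.71 and 0.69), Tff3 had Aprt, Hpx and Galns (0.79, 0.79 and 0.76), and Igf2bp2 had Hsbp1l1, Ntm and Hhip (0.73, 0.68 and 0.67).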

How the data were processed

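The deposited table gives counts, in whole numbers, of 55536 genes in 75 liver libraries. Per the submitters' processing notes the authors used Trim Galore, HISAT2 and featureCounts with mm10, in no stated order or version, and per the file name they applied ComBat-seq, a batch adjustment of counts. Its group settings are not given in the sources used here, and such an adjustment can move group differences that are uneven between batches. All gene IDs matched GENCODE M21 (GRCm38), which gave symbols, positions and UTRs.

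The counts were tested with edgeR 4.0.16 (R 4.3.3): robust quasi-likelihood fits after TMM scaling and filterByExpr, with Benjamini-Hochberg adjustment over all genes and batch as a covariate at 5 months. Vehicles of batch 1 entered the comparisons of ages. Standard errors come from the F statistic. DESeq2 1.42.0 was an alternative. The fits were checked on simulated counts. Members, gene lists, contrasts and alternatives were chosen with earlier results of these data known. The rule for named genes took all 10 members and, of each list, up to 4 called genes of smallest adjusted p per comparison; comparisons of high-risk and uninvolved livers with vehicles are given mainly as counts. Poisson intervals and floors cover counting error only, and 95% intervals of log2 differences come from the standard errors. Mouse numbers pair tumor and uninvolved liver of the same animal: deviations of the 4 separate pairs correlated at 0.462, 0.221, 0.63 and 0.289. The vehicle tumor library entered no main comparison. It was counted as vehicle in an alternative setting only, and it is among the samples of the correlations. Some results on single genes are not reported here.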

Additional observations from a re-analysis of the deposited data

Results flagged for a closer look

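A sample far from the rest of its group was seen in 8 of 74 combinations of gene and group tested by Dixon's ratio on log2 values, which chance gives in about 5% of them. The deviating 5-month vehicle 9 accounts for 3, with 7.77 CPM of Igf2bp3, 7.42 CPM of Lin28b and 3.53 CPM of Hmga2. High-risk liver 10, also a deviating library, accounts for another pair, with 2.57 CPM of Lin28b and 1.16 CPM of Hmga2. Gpc3 was low in 10-month vehicle 2, at 1.03 CPM. Igf2bp2 was high in the library labelled 3-week TBT 4, at 8.98 CPM, which is also the library whose Xist level goes against its label. Tff3 was high in the sum of uninvolved livers 3 and 6, at 183 CPM. The 5-month low-risk group of 16 samples was not covered by this test, so the lack of flags there is no result.

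The tumor library from a vehicle mouse of 10 months was used in no main comparison. Against the 6 vehicle livers of that age, and with exact Poisson 95% intervals for counting error, it was above them all in 5 of the 10 genes. Ly6d had 55.8 CPM (51.6 to 60.3), Cd24a 19.4 CPM (16.9 to 22.1), Golm1 9.56 CPM (7.86 to 11.5), Afp 6.08 CPM (4.74 to 7.68) and Igf2bp3 2.95 CPM (2.05 to 4.13). Igf2bp2 was below them, at 0.869 CPM, and Gpc3 (1.91 CPM) and Tff3 (27.7 CPM) lay within their range. This library had 14.1% mitochondrial counts, and with 1 library there is no replicate. Its total was 11.5 M counts, against 26.2 to 31.0 M in the vehicle livers. The share of all genes outside the range of the vehicle livers is not given, so nothing is read from the count of 5.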

How the results depend on the processing

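No value called in both settings changed its sign. Of the counts of called members under another setting, 154 kept within 1.5 times the reported count and 21 did not. The share of all genes called is not given for most of these settings, so a changed count is not read as particular to the members. High-risk against low-risk livers of 5 months had 6 called members, and 1 in batch 1 alone. High-risk livers against vehicles had 3, with 0 in batch 1 alone, 1 in a fit of these groups only and 0 with the title number as a replicate block. Low-risk livers against vehicles of 5 months had 0, with 1 by DESeq2 and 1 without the batch covariate, Ly6d in both. Tumors against uninvolved livers had 0, with 1 by DESeq2, 3 in a fit of all 10-month groups, 1 with uninvolved livers 3 and 6 as separate samples, 3 with a replicate block by mouse of 4 pairs and 0 with a block of 6 pairs. Vehicles of 10 against 5 months had 1, with 2 by DESeq2, 2 without the deviating libraries, 2 with the title number as a replicate block and 0 with the vehicle tumor library counted as vehicle. Leaving out 1 sample at a time gave 0 to 2 called members for tumors against uninvolved livers, 6 to 7 for tumors against low-risk livers, 5 to 6 for uninvolved livers against low-risk livers and against vehicles, 3 to 4 for high-risk livers against vehicles and 1 to 2 for vehicles of 10 against 5 months. Afp in tumors against uninvolved livers was called without tumor 3 or tumor 7, Ly6d without tumor 7, and Golm1 was 2.04 without the sum of livers 3 and 6. Tff3 in tumors against low-risk livers was not called without low-risk liver 4, 9 or 10. The genes were chosen with the differences of high-risk livers and tumors known, so nothing is read from counts or calls in those contrasts. Apart from the mouse numbers, shared title numbers were not used as pairs in the reported fits. Same-numbered samples correlated from -0.276 to 0.504 in 8 comparisons, and in 0 of these did every pair exceed 0.1. Pairs were closest to each other both ways in 0 of 6 for 5-month and 3-week vehicles. The share was 3 of 5 for 5-month low-risk livers and vehicles and 2 of 3 for high-risk livers and vehicles. What the shared numbers stand for was not tested. The causes were not tested. Libraries of few counts limit what can be said of Lin28b and Hmga2.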
